A study of Mus musculus with 6 samples.

Results

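The genes described here are those by which a bone-forming cell moves phosphate, controls the pyrophosphate that blocks mineral, and answers the hormones of phosphate balance. They were taken by name from a list of 9 genes, and 6 of these, *Ank*, *Slc20a1*, *Slc20a2*, *Phex*, *Pth1r* and *Vdr*, were found among the 11234 genes of the series. *Alpl*, *Enpp1* and *Phospho1* were not analysed here. MC3T3-E1 cells, mouse preosteoblasts that were first grown from skull bone, are labelled as strain C57BL/6 at passage 4. All cells were first kept without serum for 24 h and then received complete medium, either with 100 μmol/L cyanidin-3-O-glucoside (C3G, a plant pigment of the anthocyanin class) or without it, for 24 h. The methods name no supplement that drives mineral deposition, so all values come from 1 cell line in growth medium. RNA-seq was carried out on 3 samples per group, and nothing in the labels says that they were separate cultures, so p values measure the spread between these samples, which may be technical.

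Mineral forms where phosphate is plentiful and pyrophosphate is scarce. *Ank* brings pyrophosphate to the outside of the cell, *Enpp1* makes it there from ATP, and the alkaline phosphatase encoded by *Alpl* splits it into phosphate. *Phospho1* releases phosphate inside matrix vesicles, and the sodium-phosphate cotransporters encoded by *Slc20a1* and *Slc20a2* carry it into the cell. *Phex*, a membrane endopeptidase of bone cells, restrains the phosphate-lowering hormone encoded by *Fgf23*. *Pth1r* encodes the receptor for parathyroid hormone, and *Vdr* encodes the nuclear receptor for active vitamin D, both of which act on osteoblasts.

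No difference between C3G-treated and untreated cells was detected in any of the 6 genes. With limma on log2(FPKM + 1), 0 of the 6 passed an unadjusted p of 0.05 with a fold change of 1.2, and 0 of the 6 passed the p alone. Over all genes both thresholds called 0.650% (73 of 11234), with 0.401% higher and 0.249% lower after C3G, the p alone called 0.659%, and 0 genes passed after Benjamini-Hochberg adjustment. With the replicate number as a block the count over all genes was 169, and again 0 of the 6 were among them. The ordinary linear model also called 0 of the 6. The values of the groups overlapped in all 6 genes, whereas they did not overlap in 4.02% of all genes, of which 2.55% were higher and 1.48% lower with C3G. FPKM counts fragments relative to gene length and to all mapped fragments, so levels of different genes can be set side by side. Because 1 is added before the logarithm, fold changes of low genes such as *Phex* and *Pth1r* come out too small. In bulk RNA, fewer cells that express a gene and less of its RNA per cell cannot be told apart.

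**Figure D1:**
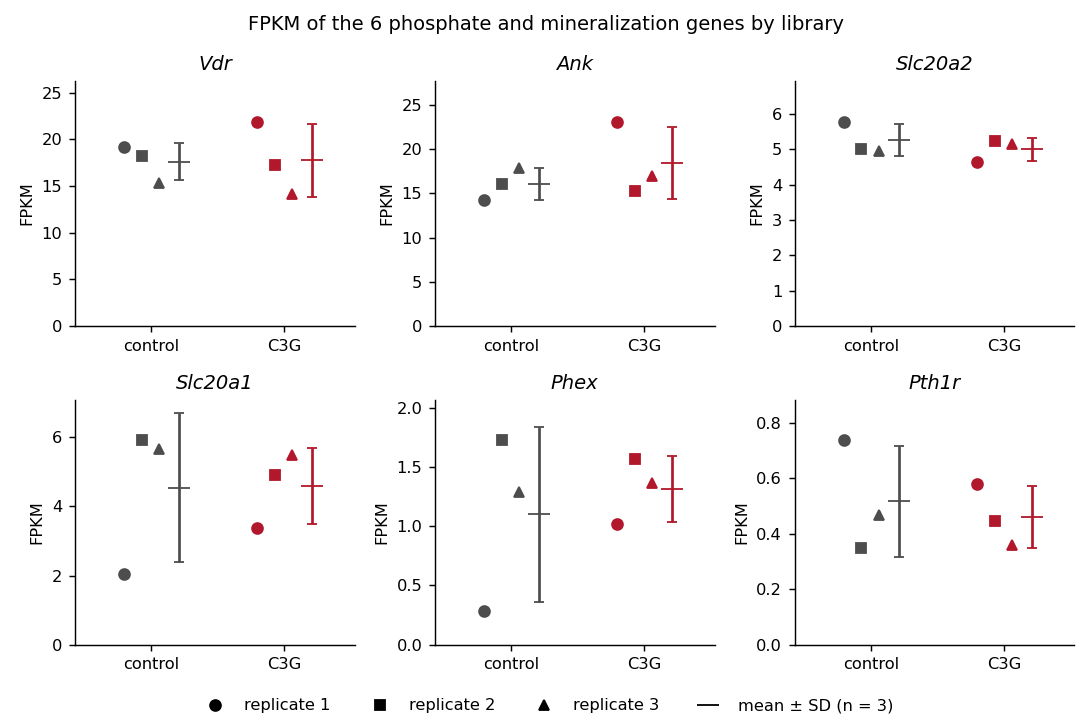
FPKM of each gene (vertical axes from 0, scaled per gene) in the control and C3G libraries, with 1 symbol per replicate number and the mean ± SD of 3 libraries beside them. The groups overlap in all 6 panels, and in *Slc20a1* and *Phex* replicate 1 is the lowest library of both groups.

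The libraries themselves were unequal. The median FPKM was 5.80 in control replicate 1 and 6.93 to 7.40 in the other 5 libraries, and 71 genes were listed at 0 in control replicate 1 against 9 to 18 in the others. Across genes, which are no independent replicates, control replicate 1 had a Pearson's r of 0.886 to 0.939 with the others on the log2(FPKM + 1) scale. Of the 10 osteoblast lineage markers 7 were analysed, while *Alpl*, *Bglap* and *Ibsp* were not. *Runx2*, the master regulator of the lineage, had 5.46 to 9.07 FPKM and *Col1a1* had 923 to 4432 FPKM, while *Sp7*, which acts after *Runx2*, had 0.237 to 0.857 FPKM. Of the chondrocyte markers *Sox9*, *Col2a1* and *Matn1* were analysed, with summed levels of 92.8 to 213 FPKM in control and 88.5 to 114 FPKM in C3G libraries. Of the 6 macrophage and osteoclast markers *Ctsk* and *Lyz2* were analysed, while the defining markers *Ptprc*, *Csf1r* and *Adgre1* were not analysed here. The summed level of *Ctsk* and *Lyz2* was 48.7 to 73.5 FPKM in control and 76.9 to 87.1 FPKM in C3G libraries. The lowest sum was that of control replicate 1, where *Ctsk* had 16.6 FPKM. Of the muscle markers *Des* had 0.715 to 1.63 FPKM and of the epithelial markers *Cdh1* had 0.524 to 1.37 FPKM, while none of the adipocyte or endothelial markers was analysed. In the following, the 3 values of a group stand in the order of replicates 1, 2 and 3. The part of these markers in the results below was not tested.

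*Ank* (ENSMUSG00000022265.7) was 1 of the 2 most abundant of the 6 genes. It lies on chromosome 15 of GRCm38 (27466677 to 27594909, plus strand), and its longest transcript has 12 exons. The untreated libraries held 14.2, 16.0 and 17.8 FPKM of *Ank*, and the treated ones 23.1, 15.3 and 17.0 FPKM. C3G replicate 1 was the highest library and control replicate 1 the lowest, and the other 4 libraries of both groups lay between them. The mean was 16.0 ± 1.81 FPKM (SD, n = 3) in untreated and 18.5 ± 4.09 FPKM (SD, n = 3) in C3G-treated cells. The difference, 0.18 on the log2(FPKM + 1) scale with a 95% confidence interval of -0.29 to 0.65, stayed within the spread of the replicates (limma p = 0.400, adjusted p = 0.992, exact permutation p = 0.5). With replicates 2 and 3 only, it was -0.065. The exact test is two-sided, and the smallest p it allows for 3 libraries against 3 is 0.1.

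The phosphate importers *Slc20a1* and *Slc20a2* had similar levels. *Slc20a1* (ENSMUSG00000027397.14, chromosome 2, 129198764 to 129211616, plus strand) stood at 2.05, 5.92 and 5.66 FPKM without C3G. With C3G it stood at 3.37, 4.92 and 5.48 FPKM. Replicate 1 was the low library in both groups, and control replicates 2 and 3 were above all C3G libraries. The group means were 4.54 ± 2.16 FPKM (SD, n = 3) in untreated and 4.59 ± 1.09 FPKM (SD, n = 3) in C3G-treated cells. The difference of 0.09 on the log2(FPKM + 1) scale had the widest interval of the 6 genes on that scale, from -0.75 to 0.92 (limma p = 0.815, exact permutation p = 1). With 0.1 added instead of 1, the standard error was larger for *Phex* (0.591) than for *Slc20a1* (0.439). Without control replicate 1 it was -0.30 and did not pass the thresholds.

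*Slc20a2* (ENSMUSG00000037656.9, chromosome 8, 22476788 to 22569612, plus strand) varied least. Its FPKM was 5.77, 5.02 and 4.96 without C3G, and 4.63, 5.23 and 5.14 with C3G. The highest and the lowest library, which were both replicate 1, differed by 1.25-fold, against 2.89-fold for *Slc20a1*. The residual standard deviation of *Slc20a2* within groups was 0.0915 on the log2(FPKM + 1) scale, smaller than in all but 5.71% of the genes. That of *Slc20a1* was 0.517, larger than in 84.1% of them. The means of *Slc20a2* were 5.25 ± 0.453 FPKM (SD, n = 3) without C3G and 5.00 ± 0.323 FPKM (SD, n = 3) with it. The difference was -0.06 on the log2 scale, with an interval of -0.42 to 0.30 (limma p = 0.714, exact permutation p = 0.6).

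The ratio of *Slc20a1* to *Slc20a2* compares the importers within a library, as a difference of log2(FPKM + 1). In control it was -1.15, 0.20 and 0.16, and after C3G it was -0.37, -0.075 and 0.079. In both replicate 1 libraries *Slc20a2* was clearly the higher of the pair, and in the other 4 the ratio was near 0 in either direction. The mean ratio differed by 0.14 between the groups (exact permutation p = 1, adjusted over 2 ratios p = 1), less than the spread between replicates. It turned to -0.30 without control replicate 1 and to -0.18 with replicates 2 and 3 only. The ratio of *Pth1r* to *Vdr*, the receptors for the 2 hormones, was -3.62 ± 0.190 (SD, n = 3) without and -3.66 ± 0.191 (SD, n = 3) with C3G. That difference was -0.05 (exact permutation p = 0.8, adjusted p = 1), and it ranged from -0.16 without control replicate 2 to 0.13 with the GC correction, with 0.09 for replicates 2 and 3 only. Because *Pth1r* is listed only through its control mean, as given below, this comparison depends on that filter.

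*Phex* (ENSMUSG00000057457.11) lies on the X chromosome (157162075 to 157415312, minus strand), and its longest transcript has 22 exons. Untreated cells gave 0.287, 1.73 and 1.29 FPKM, and treated cells 1.02, 1.57 and 1.37 FPKM. Replicate 1 was the lowest and replicate 2 the highest in both groups, and the highest library was 6.02-fold above the lowest. The means were 1.10 ± 0.739 FPKM (SD, n = 3) in untreated and 1.32 ± 0.278 FPKM (SD, n = 3) in C3G-treated cells. The difference of 0.20 on the log2 scale had an interval of -0.48 to 0.89 (limma p = 0.501, exact permutation p = 0.8). With replicates 2 and 3 only, it was -0.019, with an interval of -0.34 to 0.30.

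Of the 2 hormone receptors, *Pth1r* (ENSMUSG00000032492.14, chromosome 9, 110722085 to 110747145, minus strand) was the lowest of the 6 genes. Its untreated libraries held 0.737, 0.347 and 0.467 FPKM, and its treated ones 0.579, 0.446 and 0.358 FPKM. Replicate 1 was the highest in both groups. Every listed gene has a mean of at least 0.5 FPKM in at least 1 group. *Pth1r* met this through its control mean of 0.517 ± 0.200 FPKM (SD, n = 3), which is 0.407 FPKM without replicate 1, while its C3G mean was 0.461 ± 0.111 FPKM (SD, n = 3). It is thus listed only through the group where it is higher, so the comparison of its groups depends on that filter. Its difference was -0.05 on the log2 scale, with an interval of -0.38 to 0.28 (limma p = 0.735, exact permutation p = 0.7). Only 1.39% of the genes had a lower control mean.

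*Vdr* (ENSMUSG00000022479.15, chromosome 15, 97854425 to 97910630, minus strand) reached 19.2, 18.2 and 15.4 FPKM without C3G. With C3G it reached 21.9, 17.3 and 14.1 FPKM. Replicate 1 was the highest and replicate 3 the lowest library in both groups, which overlapped over most of their range. The means were 17.6 ± 2.00 FPKM (SD, n = 3) in untreated and 17.8 ± 3.90 FPKM (SD, n = 3) in C3G-treated cells. The difference was -0.0023 on the log2 scale, with an interval of -0.48 to 0.48 (limma p = 0.991, adjusted p = 1.00, exact permutation p = 1).

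**Figure D2:**
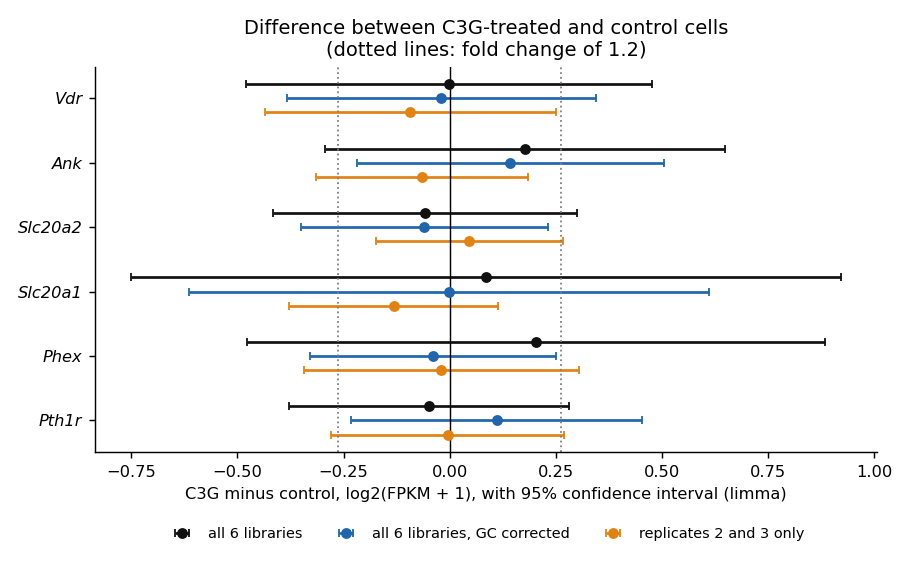
Difference of mean log2(FPKM + 1) between C3G and control (horizontal axis) for each gene, as points with 95% confidence intervals from limma, for all 6 libraries, for all 6 after correction for GC content, and for replicates 2 and 3 only. Every interval includes 0, and that of *Slc20a1* narrows from -0.75 to 0.92 with all libraries to -0.38 to 0.11 with replicates 2 and 3.

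As fold changes on the log2(FPKM + 1) scale, the 95% intervals reached from a fold of 0.749 to 1.23 for *Slc20a2*, from 0.816 to 1.57 for *Ank* and from 0.717 to 1.39 for *Vdr*. For *Slc20a1* they reached from 0.594 to 1.90, for *Phex* from 0.718 to 1.85 and for *Pth1r* from 0.769 to 1.22. A change of 1.2-fold in either direction lay within the interval of each of the 6 genes with all libraries and no correction.

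In order of mean log2(FPKM + 1) over the 6 libraries, *Vdr* came first, then *Ank*, *Slc20a2*, *Slc20a1*, *Phex* and *Pth1r*. *Vdr* and *Ank*, with means of 17.7 and 17.2 FPKM, did not differ beyond their spread within libraries, and *Vdr* was higher in 3 of 6 (exact sign-flip permutation p = 0.75, adjusted over 5 pairs p = 0.75). *Slc20a2* and *Slc20a1* did not differ beyond their spread either, at 5.13 and 4.57 FPKM (exact permutation p = 0.5, adjusted p = 0.625). Without replicate 1 the order within both pairs was the reverse. The control and C3G means were then 16.9 and 16.1 FPKM for *Ank* and 16.8 and 15.7 FPKM for *Vdr*. They were 5.79 and 5.20 FPKM for *Slc20a1* and 4.99 and 5.19 FPKM for *Slc20a2*. *Ank* was above *Slc20a2* in 6 of 6 libraries, by 1.56 ± 0.311 on the log2 scale (SD over libraries), and *Slc20a1* was above *Phex* in 6 of 6, by 1.32 ± 0.160. Both had an exact permutation p of 0.0313, the smallest that 6 libraries allow, and an adjusted p of 0.0781. This test takes the 6 libraries as independent, although libraries with the same replicate number deviated together. *Phex* was above *Pth1r* in 5 of 6 libraries, and control replicate 1 was the exception (exact permutation p = 0.0938, adjusted p = 0.156).

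The 6 genes departed in replicate 1 in different directions, beside a departure of the whole libraries by base composition. Control replicate 1 departed from control replicates 2 and 3 with the GC content of the longest transcript (Spearman's rho 0.748 across genes, which are not independent), and C3G replicate 1 departed from its group likewise (rho 0.631). *Phex* has the lowest GC content of the 6 genes, 39.6%, and only 5.48% of the genes are below it. *Pth1r* has the highest, 60.4%, above 96.3% of the genes. The middle 150 bases of their coding sequences (GENCODE M21) are shown to make this contrast visible, with G and C in capitals.
*Phex*, bases 1049 to 1198 of the coding sequence: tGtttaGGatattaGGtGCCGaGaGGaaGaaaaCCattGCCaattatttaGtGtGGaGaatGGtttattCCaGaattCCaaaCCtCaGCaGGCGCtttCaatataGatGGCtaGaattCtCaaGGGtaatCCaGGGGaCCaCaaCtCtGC
*Pth1r*, bases 812 to 961 of the coding sequence: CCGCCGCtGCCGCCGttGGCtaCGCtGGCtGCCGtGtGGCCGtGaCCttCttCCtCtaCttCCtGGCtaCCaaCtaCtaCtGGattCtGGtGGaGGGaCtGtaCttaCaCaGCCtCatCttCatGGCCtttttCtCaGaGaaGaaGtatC
In these stretches G and C make up 42.7% of the bases in *Phex* and 55.3% in *Pth1r*, against 44.1% and 57.4% in the whole coding sequences. The middle stretches of *Ank* (61.3%) and *Vdr* (56.0%) are richer than that of *Pth1r*, which is the highest only by its longest transcript.

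On the log2(FPKM + 1) scale, replicate 1 minus the mean of replicates 2 and 3 was -0.96 for *Phex* in control and -0.29 in C3G. For *Pth1r* it was 0.31 and 0.17. *Slc20a1*, with a GC content of 48.3%, departed by -1.15 in control and -0.50 in C3G. The median of the genes in the bin nearest to it in GC content, at 48.2%, was -0.33 in control and -0.05 in C3G. After the libraries were corrected for GC content, the departure of *Phex* was 0.18 and 0.07, while that of *Slc20a1* was -0.84 and -0.46. That of *Pth1r* turned sign, to -0.39 and -0.12, and was then larger in control than before. *Vdr* (52.4% GC) departed upwards in both groups, by 0.19 and 0.46. *Ank* (51.4%) and *Slc20a2* (53.3%) departed in opposite directions in the 2 groups, by -0.24 and 0.49 for *Ank* and by 0.18 and -0.13 for *Slc20a2*. After the correction the departures were 0.13 and 0.33 for *Vdr*, -0.21 and 0.39 for *Ank*, and 0.04 and -0.29 for *Slc20a2*. With the correction, the differences between C3G and control were 0.14 for *Ank*, -0.0024 for *Slc20a1*, -0.06 for *Slc20a2*, -0.040 for *Phex*, 0.11 for *Pth1r* and -0.02 for *Vdr*, and none passed the thresholds. What part base composition has in the replicate 1 values was not tested further.

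**Figure D3:**
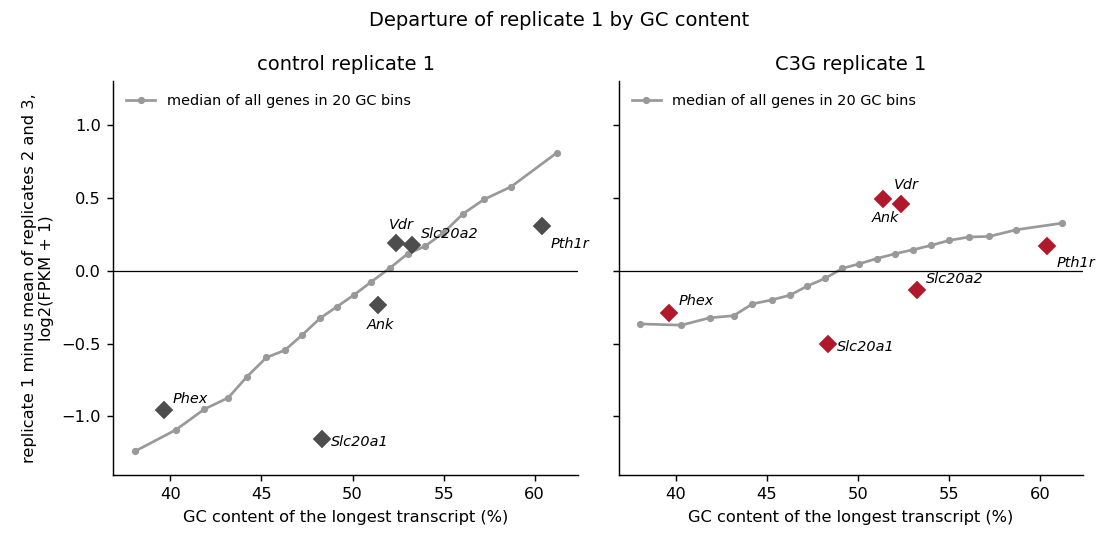
Replicate 1 minus the mean of replicates 2 and 3 in log2(FPKM + 1) (vertical axis) against the GC content of the longest transcript in percent (horizontal axis), for control on the left and C3G on the right. Diamonds are the 6 genes and the grey line joins the medians of all genes in 20 bins of GC content; *Slc20a1* lies at -1.15 in control, under the line, and *Phex* at -0.96, close to it.

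Some of the genes followed each other, or went opposite ways, over the 6 libraries, which share these departures. Pearson's r of log2(FPKM + 1) was 0.944 between *Slc20a1* and *Phex*, -0.953 between *Slc20a1* and *Pth1r*, -0.928 between *Phex* and *Pth1r*, and -0.891 between *Ank* and *Slc20a2*. All other pairs were looser, from -0.625 for *Slc20a1* and *Vdr* to 0.599 for *Pth1r* and *Vdr*, and *Ank* and *Pth1r* had an r of -0.017. Among 10463 other genes with a mean of at least 1 FPKM, those most like *Slc20a1* were *Dsel*, *Tdp2* and *Rbm39* (r = 0.999 for each, n = 6). *Riok3*, *Lpar4* and *Ndufaf2* were most like *Phex* (r = 0.998 to 0.999, n = 6). Such a likeness was common, since 15.4% of the genes had an r over 0.95 with *Slc20a1* and 16.4% with *Phex*. It was rare for *Vdr*, where 0.191% of the genes passed this value and *Ndufb6*, *Ercc1* and *Uba1* were the closest (r = 0.980 to 0.993, n = 6). For *Ank* the share was 0.593%, with *Kctd1*, *Narfl* and *Znrd1* the closest (r = 0.987 to 0.990, n = 6). For *Slc20a2* it was 0.115%, with *Daam2*, *Cnpy4* and *Ankrd11* (r = 0.972 to 0.991, n = 6), and for *Pth1r* it was 2.84%, with *Cables1*, *Washc3* and *Radil* (r = 0.994 to 0.997, n = 6). Without the 2 libraries farthest from its median, the r of *Slc20a2* with *Ankrd11* was 0.578, and that of *Slc20a1* with *Dsel* was 0.998.

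The reads of some of these genes can be shared with neighbours. The exons of *Slc20a2* overlap those of *Smim19* on the opposite strand, which had 9.13 to 13.8 FPKM. The exons of *Slc20a1* overlap *9830144P21Rik* and *Gm4430* on the opposite strand, those of *Pth1r* overlap *Myl3* on the opposite strand, and those of *Ank* hold *Mir7117* on the same strand. *Phex* and *Vdr* overlap no other exon. Only *Phex* shared any 75-base stretch of its longest transcript with another gene, *Gm38386*, and this was 0.0323% of its stretches. The libraries were stranded, but whether strand was used in counting is not given in the sources used here, so the levels of the overlapping genes are uncertain.

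Related genes were followed in 7 lists by role, which together held 64 analysed genes beside the 6. With limma 0 of these 64 passed both thresholds and 0 had an unadjusted p under 0.05, beside 0.650% and 0.659% over all genes. The groups overlapped in all 64, whereas they did not overlap in 4.02% of all genes. With shares this low, counts of 0 among these 64 genes say little about them. Their median difference was 0.06 on the log2 scale, as it was for all genes (0.06), and 42 of the 64 differences were above 0, beside 62.0% over all genes. With replicates 2 and 3 only, both medians were -0.01. The medians of 6 of the 7 lists were then below 0, from -0.065 to -0.011, and that of the vitamin D list was 0.043, whereas all 7 were above 0 with all libraries.

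**Figure D4:**
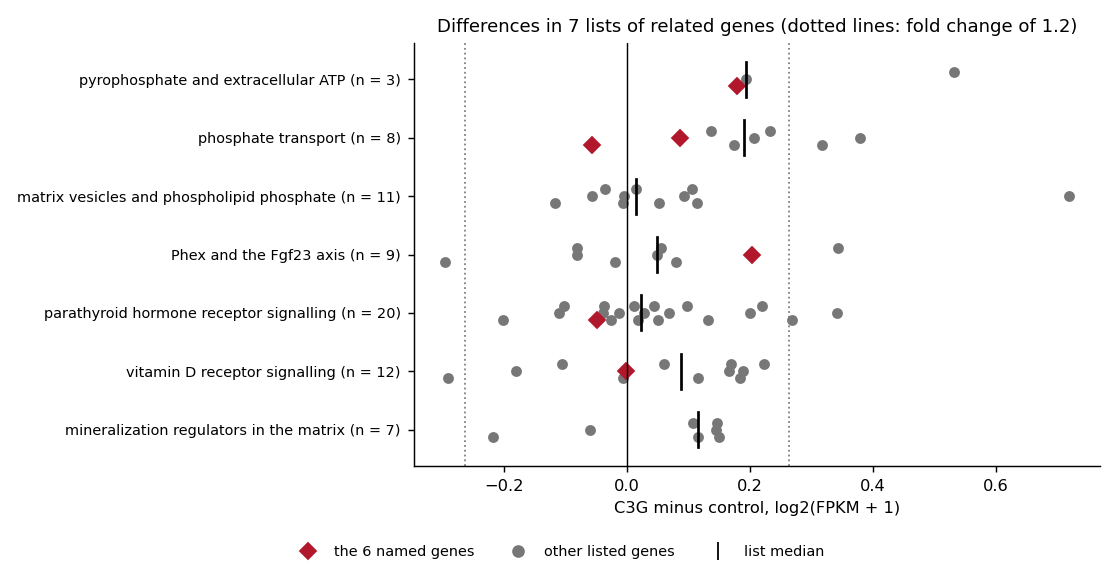
Difference of mean log2(FPKM + 1) between C3G and control (horizontal axis) for the analysed genes of 7 lists (vertical axis), with red diamonds for the 6 genes and a bar at each list's median. Most points lie between the dotted lines of a 1.2-fold change; *Pcyt1a* at 0.72 and *Panx3* at 0.53 lie farthest out, and neither passed the test.

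In the list of pyrophosphate and extracellular ATP, 3 of 12 genes were analysed. *Panx3*, a channel of bone and cartilage cells that releases ATP, gave 1.21, 3.76 and 3.38 FPKM in untreated and 3.33, 4.99 and 4.37 FPKM in treated cells. In each pair of libraries with the same number the C3G library was higher, but C3G replicate 1 was below both of the higher control libraries. Its difference was 0.53 on the log2 scale, with an interval of -0.23 to 1.29 (limma p = 0.140, adjusted p = 0.992, exact permutation p = 0.3). Both thresholds were passed with the replicate number as a block (interval 0.06 to 1.01, limma adjusted p = 0.794), with the GC correction (0.04 to 0.74, adjusted p = 0.996) and with both together (0.13 to 0.65, adjusted p = 0.785). It also passed with replicates 2 and 3 only, where the difference was 0.31 (0.04 to 0.59, adjusted p = 1.00). In the other 14 alternatives it did not pass, and without control replicate 1 the difference was 0.18 (-0.21 to 0.58).

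Among the genes of phosphate transport 8 of 13 were analysed, with a median difference of 0.19 and a range of -0.06 to 0.38. The smallest p belonged to *Slc25a3*, the mitochondrial phosphate carrier, and to *Slc17a5*, a lysosomal sialic acid transporter of the phosphate transporter family. *Slc25a3* had 66.0 ± 14.2 FPKM (SD, n = 3) without and 76.6 ± 6.38 FPKM (SD, n = 3) with C3G, and neither test passed (limma p = 0.299, exact permutation p = 0.4). *Slc17a5* had 2.47 ± 1.22 and 3.11 ± 0.0752 FPKM (SD, n = 3) without and with it (limma p = 0.310, exact permutation p = 0.7). *Xpr1*, which exports phosphate and was named after its values were seen, gave 1.56, 5.09 and 4.81 FPKM in untreated and 3.97, 5.29 and 5.38 FPKM in treated cells (limma p = 0.318, exact permutation p = 0.5). Control replicate 1 was the lowest library for *Slc25a3*, *Slc17a5* and *Xpr1*. With replicates 2 and 3 only, the median of the list was -0.01.

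Of the genes of matrix vesicles and phospholipid phosphate, 11 of 12 were analysed, with a median difference of 0.01, which was -0.033 with the GC correction. *Pcyt1a*, the rate-limiting enzyme of phosphatidylcholine synthesis, gave 5.08, 5.89 and 14.7 FPKM in untreated and 11.5, 13.7 and 15.0 FPKM in treated cells. Control replicate 3 lay among the C3G libraries, and the other 2 controls were below all of them. The difference was 0.72 on the log2 scale, with an interval of -0.15 to 1.59 (limma p = 0.0917, exact permutation p = 0.3). It passed both thresholds with the replicate block (0.06 to 1.38, limma adjusted p = 0.794), with the block and the GC correction (0.06 to 1.19, adjusted p = 0.785) and without control replicate 3, where it was 1.15 (0.63 to 1.67, adjusted p = 0.877). Without control replicate 1 it was 0.46 (-0.31 to 1.23) and did not pass. *Chka*, which makes phosphocholine, had 1.94 ± 0.368 and 1.72 ± 0.368 FPKM (SD, n = 3) without and with C3G (limma p = 0.519, exact permutation p = 0.5).

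Of the list of *Phex* and the *Fgf23* axis, 9 of 13 genes were analysed, with a median difference of 0.05, and their differences ranged from -0.30 to 0.34. *Fam20b*, a xylose kinase of proteoglycan synthesis, gave 7.20, 17.0 and 17.5 FPKM in untreated and 16.1, 16.2 and 18.0 FPKM in treated cells (exact permutation p = 0.8). *Dmp1*, a mineral-binding matrix protein, gave 17.0, 6.50 and 8.04 FPKM in untreated and 11.4, 4.91 and 7.95 FPKM in treated cells (limma p = 0.487, exact permutation p = 0.6). Replicate 1 was the highest library of both groups for *Dmp1*, and the lowest for *Phex*.

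Of the parathyroid hormone receptor signalling list 20 of 23 genes were analysed, with a median difference of 0.02. Those with the smallest p were *Arrb1*, a β-arrestin that binds activated receptors, and the kinase gene *Sik3*. *Arrb1* had 0.350 FPKM in control replicate 1 and 1.25 to 1.68 FPKM in the other 5 libraries (limma p = 0.204, exact permutation p = 0.3). *Sik3* had 4.03 to 7.13 FPKM over all libraries (limma p = 0.392, exact permutation p = 0.4). Of the vitamin D receptor signalling list 12 of 17 were analysed, with a median difference of 0.09. *Snw1*, a coactivator that binds *Vdr*, had 17.8 to 22.8 FPKM without and 16.5 to 19.0 FPKM with C3G (limma p = 0.295, exact permutation p = 0.2). *Ncoa3*, another coactivator, had 2.82 to 5.22 FPKM without and 4.33 to 4.95 FPKM with C3G (limma p = 0.405, exact permutation p = 0.6). For neither gene were the groups apart.

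Among the mineralization regulators in the matrix 7 of 12 genes were analysed, with a median difference of 0.12 and a range of -0.22 to 0.15. The median was -0.040 with replicates 2 and 3 only and -0.049 with the GC correction. *Bmp1*, which processes procollagen, had 18.5 ± 6.34 and 15.4 ± 3.47 FPKM (SD, n = 3) without and with C3G (limma p = 0.448, exact permutation p = 0.6). *Bmp4*, a bone morphogenetic protein, had 2.74 ± 0.997 and 3.12 ± 0.951 FPKM (SD, n = 3; limma p = 0.585, exact permutation p = 0.6). *Mgp*, an inhibitor of mineral deposition named after its values were seen, gave 136, 142 and 174 FPKM in untreated and 206, 137 and 149 FPKM in treated cells (limma p = 0.635, exact permutation p = 0.6). As in *Ank*, control replicate 1 was the lowest library and C3G replicate 1 the highest.

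Outside these lists, 1 marker gene passed both thresholds, as 0.650% of all genes did. It was 1 of the 2 analysed macrophage and osteoclast markers, and no analysed gene of the other marker lists passed. *Lyz2*, the lysozyme gene of macrophages, gave 32.1, 40.4 and 38.2 FPKM in untreated and 52.2, 45.1 and 54.3 FPKM in treated cells. The groups did not overlap, as in 4.02% of all genes (2.55% higher with C3G). The difference was 0.44 on the log2 scale (limma p = 0.0315, adjusted p = 0.992, exact permutation p = 0.1). *Lyz2* passed in 14 of 18 alternatives, and did not pass with median centring (0.38) or without control replicate 3 (0.47), C3G replicate 1 (0.42) or C3G replicate 3 (0.39). The other analysed gene of that list, *Ctsk*, gave 16.6, 33.1 and 34.5 FPKM in untreated and 32.8, 31.9 and 32.8 FPKM in treated cells (limma p = 0.370, exact permutation p = 1). The markers with the smallest p in the osteoblast list were *Dlx5* and *Msx2* (limma p = 0.194 and 0.394, exact permutation p = 0.3 and 0.4). In the chondrocyte list they were *Col2a1* and *Sox9* (limma p = 0.118 and 0.672, exact permutation p = 0.2 and 0.8).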

How the data were processed

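RNA was extracted with TRIzol, libraries were made with a stranded kit, and 3 libraries per group were sequenced. The authors deposited 1 FPKM value per gene and library, calculated with Ballgown after a check of the reads with FastQC. The submitters' processing notes name cutadapt, HISAT2 2.1.0, StringTie and STAR 2.5.2b without their roles, and the human build hg19, although the gene identifiers are mouse Ensembl identifiers. For 9812 of the 11234 genes, and for 6 of the 6 genes described, the version equals that of GENCODE M21 on GRCm38, from which symbols (11211 genes), positions, overlaps, GC content and sequences were taken. The listed genes all reach 0.5 FPKM in the mean of 1 or both groups. Low FPKM values of genes with 1 transcript showed no step of single reads (at most 15.7% of the 300 lowest were within 0.05 of a whole multiple of the best step), so depth is unknown and no counting error is given.

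The log2(FPKM + 1) values of all genes were fitted together with limma 3.58.1 (eBayes with trend) under R 4.3.3, the group being the sole term. DEGs were called where the unadjusted p (two-sided) was under 0.05 and the fold change 1.2 or more, with Benjamini-Hochberg adjustment over all genes alongside. A two-sided exact permutation test was run for each of the named genes in Python 3.11.15, and neighbours in level with an exact sign-flip test over libraries. Libraries with the same replicate number in the titles deviated together from their group means (correlation across genes 0.653, 0.580 and 0.440 for numbers 1, 2 and 3). Unlike numbers did so too for control replicate 2 with C3G replicate 3 (0.307) and control replicate 3 with C3G replicate 2 (0.300). The pairing of numbers 2 and 3 is therefore less clear. The numbers were still taken to pair the libraries for the fit with a block. The alternatives are a pseudocount of 0.1, leaving out genes with a mean under 1 FPKM, other variance estimates, a library covariate, quantile normalization, median centring, the ratio of mean FPKM, the block, a GC correction (natural spline with 5 degrees of freedom), replicates 2 and 3 only, and leaving out each library. The 6 genes, the 7 lists and the tests were chosen with earlier results of these data known. The text names the 6 genes, the called genes or, with none called, the 2 of smallest p per list, and the 3 genes most like each of the 6, besides *Xpr1*, *Mgp*, *Runx2*, *Col1a1* and *Sp7*, named after their values were seen.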

Additional observations from a re-analysis of the deposited data

How the results depend on the processing

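With each of 18 alternatives (17 for *Pth1r*, which the filter removed), 0 of the 6 genes passed the thresholds, and 81 of 107 recomputed differences kept their sign. Part of this was fixed in advance, since the filter, the other variance estimates and the block leave the difference itself unchanged. The other 26 turned sign on the log2(FPKM + 1) scale, by as much as from 0.09 to -0.30 for *Slc20a1* without control replicate 1. With replicates 2 and 3 only, *Ank* was -0.065, *Slc20a1* -0.13, *Slc20a2* 0.047 and *Phex* -0.019. With the library covariate, *Slc20a1* was -0.22, *Phex* -0.044, *Pth1r* 0.034 and *Vdr* 0.066. With the GC correction, without and with the replicate block, *Slc20a1* was -0.0024, *Phex* -0.040 and *Pth1r* 0.11. *Slc20a1* was -0.012 with quantile normalization, and *Vdr* was 0.013 with the ratio of mean FPKM. With a pseudocount of 0.1, *Phex* was 0.49 (standard error 0.591, against 0.287 with 1). *Pth1r* was then -0.11 (standard error 0.358, against 0.139 with 1). With each library left out in turn, *Slc20a1* ranged from -0.30 to 0.29, *Slc20a2* from -0.090 to 0.0015, *Phex* from -0.12 to 0.43, *Pth1r* from -0.13 to 0.053, *Vdr* from -0.16 to 0.14 and *Ank* from 0.01 to 0.30. The values without control replicate 1 were -0.30 for *Slc20a1*, 0.0015 for *Slc20a2*, -0.12 for *Phex*, 0.053 for *Pth1r* and 0.06 for *Vdr*. *Vdr* was 0.02 without control replicate 2, 0.0052 without C3G replicate 2 and 0.14 without C3G replicate 3, where *Slc20a1* was -0.03 and *Pth1r* 0.0022. The cause was not tested.

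Over all genes the count of 73 became 48 with the ordinary linear model, 169 with the replicate block, 135 with the GC correction, 246 with both and 191 with replicates 2 and 3 only. It ranged from 40 to 144 with 1 library left out, and the highest was without control replicate 1. The pyrophosphate list had 1 call (*Panx3*) with the replicate block, with the GC correction, with both, and with replicates 2 and 3 only. The matrix vesicle list had 1 call (*Pcyt1a*) with the replicate block alone or with the GC correction, and 0 to 1 with 1 library left out (1 without control replicate 3). The block changed no other call among the 6 genes and the 7 lists. Without counts, the reads behind *Pth1r* and *Phex* are unknown.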
